A study of Mus musculus with 12 samples.

Results

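Acute-phase proteins and components of interleukin-6 (IL-6) family signalling were followed in mouse mammospheres, floating spheres grown from mammary gland cells, before and after differentiation. The 10 genes are Ptx3, Saa3, Lcn2, Reg1, Il6, Lif, Il1rl1, Cebpd, Osmr and Socs3. They were chosen by the difference in MAS5 signal between the 2 states, which was known when they were listed by name, so their values are given as a description and no p-value is printed for them. Single-gene probe sets were found for 9 of the 10, with 16 probe sets in all, against 18194 genes with 35067 single-gene probe sets on both chips. Il1rl1, the receptor for interleukin-33, was not analysed here. On these 9 genes, 15 of the 16 probe sets were bright enough to enter the fit.

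Total RNA of 3 differentiated and 3 undifferentiated samples, numbered 1, 2 and 4 in each state, was measured on a pair of Affymetrix chips, MOE430A and MOE430B, with 12 arrays in all. Differentiated cells had been kept for 6 days in DMEM with high glucose and 5% foetal bovine serum, attached to dishes coated with collagen, and the labels put them at about 50% myoepithelial and 50% luminal cells. Undifferentiated samples were passage 3 mammospheres grown in 3:1 DMEM and F12 with B-27, basic fibroblast growth factor, epidermal growth factor and heparin. The labels give these an estimated purity of 90%, with 10% myoepithelial cells. Medium, serum, growth factors and attachment thus changed together with the state and cannot be told apart. The labels do not say whether same-state samples came from separate cultures or animals, so the spread between them may be partly technical.

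Each value is a MAS5 signal, the intensity of a probe set on a linear scale. A signal was taken as above background when it exceeded the brightest of the 3 trpn controls of its array, bacterial sequences that mouse RNA does not contain. That background was 670 to 829.8 in differentiated and 516 to 657 in undifferentiated samples on MOE430A, and 1674 to 2995 on MOE430B. It is a strict cut, with 43.5% to 54.5% of all probe sets below it on single MOE430A arrays. On single MOE430B arrays that share was 69.3% to 85.0%. Correlations of log2 values on MOE430A were 0.949 to 0.958 within differentiated, 0.972 to 0.975 within undifferentiated and 0.90 to 0.92 between unlike samples. On MOE430B they were 0.833 to 0.853, 0.893 to 0.894 and 0.805 to 0.849. Differentiated arrays of that chip were thus little more alike than arrays of unlike states. The spiked-in hybridisation controls of differentiated samples 1, 2 and 4 stood at 2.88, 1.43 and 2.87 times the undifferentiated mean on MOE430A, so sample 2 stands apart from the other differentiated samples. All differentiated arrays ran on fluidics station 1 and all undifferentiated arrays on station 2, which cannot be told apart from the state, and undifferentiated sample 1 alone was scanned in a second session. In such bulk RNA, fewer cells of a type and less RNA per cell cannot be told apart.

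As background, the acute-phase response is the rapid change of secreted defence proteins after infection or injury, best known in liver and also found in epithelium and fibroblasts. Ligands of the IL-6 family share the signalling receptor chain gp130, encoded by Il6st, which activates JAK kinases and the transcription factor STAT3. STAT3 and C/EBP factors switch on acute-phase genes, and Socs3, itself a STAT3 target, shuts the receptor down. In the mammary gland, leukaemia inhibitory factor, oncostatin M receptor and STAT3 are known for their part in involution, the regression of the gland after weaning.

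The RefSeq promoter table (build GRCm38.p6) held 8 of the 9 measured members, all but Cebpd. The 250 bases before the annotated start were searched on both strands for a STAT motif (TTCNNNGAA), a C/EBP motif (TTGCNNAA), an AP-1 motif (TGANTCA) and the NF-kB motif, and on the gene's strand for a TATA box (TATAAA). Sequences of 6 members are shown, the 3 with the widest separation of the states, the one that was lower after differentiation, the cytokine Il6 and the feedback inhibitor Socs3. They run 5′ to 3′ on the gene's strand, with motif matches in capitals.
Ptx3: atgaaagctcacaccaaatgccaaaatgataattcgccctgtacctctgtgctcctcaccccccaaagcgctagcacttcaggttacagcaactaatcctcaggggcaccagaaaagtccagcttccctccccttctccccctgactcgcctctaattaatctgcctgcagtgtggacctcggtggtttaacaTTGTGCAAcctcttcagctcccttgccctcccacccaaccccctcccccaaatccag
Saa3: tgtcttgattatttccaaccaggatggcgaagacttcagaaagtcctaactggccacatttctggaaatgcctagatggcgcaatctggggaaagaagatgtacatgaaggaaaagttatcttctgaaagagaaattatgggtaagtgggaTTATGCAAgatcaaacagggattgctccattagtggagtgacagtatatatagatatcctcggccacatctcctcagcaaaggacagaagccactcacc
Reg1: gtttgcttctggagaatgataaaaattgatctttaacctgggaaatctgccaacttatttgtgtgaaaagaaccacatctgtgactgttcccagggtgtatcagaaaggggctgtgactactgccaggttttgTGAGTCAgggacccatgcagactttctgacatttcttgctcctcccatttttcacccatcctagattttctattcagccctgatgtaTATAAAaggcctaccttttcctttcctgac
Lcn2: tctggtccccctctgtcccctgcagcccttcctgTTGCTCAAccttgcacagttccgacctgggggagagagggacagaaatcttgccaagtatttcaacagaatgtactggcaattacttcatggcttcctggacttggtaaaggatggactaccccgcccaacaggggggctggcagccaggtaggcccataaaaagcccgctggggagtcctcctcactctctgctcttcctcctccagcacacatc
Il6: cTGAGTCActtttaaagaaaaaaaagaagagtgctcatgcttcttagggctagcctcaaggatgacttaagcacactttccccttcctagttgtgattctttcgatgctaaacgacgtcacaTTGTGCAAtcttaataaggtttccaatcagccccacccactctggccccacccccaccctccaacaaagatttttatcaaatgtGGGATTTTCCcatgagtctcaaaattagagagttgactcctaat
Socs3: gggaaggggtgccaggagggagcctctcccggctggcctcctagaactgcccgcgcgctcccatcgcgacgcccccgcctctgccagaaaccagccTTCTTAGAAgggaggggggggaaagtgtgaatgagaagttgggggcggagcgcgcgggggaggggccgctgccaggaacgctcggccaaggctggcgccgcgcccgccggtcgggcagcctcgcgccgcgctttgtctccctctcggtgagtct
These windows lie at chr3:66219637-66219886 on the plus strand for Ptx3, chr7:46715677-46715926 on the minus strand for Saa3, chr6:78425733-78425982 on the plus strand for Reg1, chr2:32387740-32387989 on the minus strand for Lcn2, chr5:30012864-30013113 on the plus strand for Il6 and chr11:117969367-117969616 on the minus strand for Socs3.

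The C/EBP letters were found in 4 of the 8 promoters, those of Ptx3, Saa3, Lcn2 and Il6, and in 9.56% of the 32851 promoters of the table. In Ptx3 they lie 57 to 50 bases before the start, in Saa3 99 to 92, in Il6 128 to 121 and in Lcn2 216 to 209 bases before it. Lcn2, whose signal was the lower one in differentiated samples, thus carries the same letters as Ptx3 and Saa3, whose signals were higher. The AP-1 letters were found in Reg1, Il6 and Lif, 3 of 8 against 6.75% of all promoters. The Socs3 promoter held the only STAT match, 154 to 146 bases before the start, against 7.02% of all promoters. Il6 held the only NF-kB match, at 44 to 35 bases (3.9% of all promoters), and Reg1 the only exact TATA box, at 30 to 25 bases (7.59% of all promoters). The Osmr window, chr15:6874314-6874563 on the minus strand, held none of the 5 motifs. No matches overlapped. A match says only that these letters occur in the window.

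**Figure D1:**
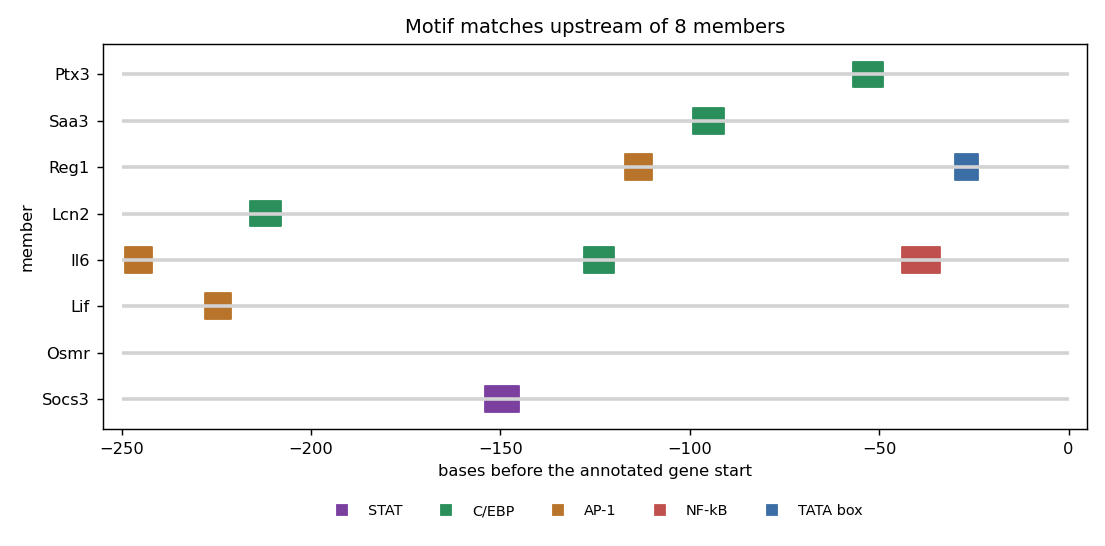
Motif matches in the 250 bases before the annotated start of 8 members; each row is a gene, the horizontal axis is the distance before the start in bases, and coloured blocks are matches. C/EBP matches appear in 4 rows at distances between 57 and 216 bases, and the Osmr row is empty.

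The pentraxin Ptx3, a secreted pattern recognition protein that binds microbes and complement, had the widest separation. Its MOE430A probe set 1418666_at read 17722, 22261 and 22860.2 in differentiated samples 1, 2 and 4, against 216, 305 and 272 in undifferentiated samples. All differentiated arrays were far above background and all undifferentiated arrays below it. The means were 20948 ± 2810 and 264 ± 45.0 (SD, n = 3 each), which puts it at least 36.1-fold higher in differentiated samples. The MOE430B probe set 1456903_at read 2499, 974 and 2493 in differentiated samples, against 127, 127 and 983 in undifferentiated samples. There the states overlapped, since differentiated sample 2 was below undifferentiated sample 4, and only 1 of 6 arrays was above background.

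Saa3, a serum amyloid A protein made outside the liver, for example by macrophages and epithelium, read 7263, 5067 and 5115 in differentiated samples, against 365, 363 and 483 in undifferentiated samples (1450826_a_at). Every undifferentiated array was below background, and the states did not overlap. The means were 5815 ± 1254 and 404 ± 68.3 (SD, n = 3 each), at least 9.94-fold higher in differentiated samples. Differentiated sample 1 was the highest of its state, where for Ptx3 it was the lowest.

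Reg1, a secreted C-type lectin first known from regenerating pancreatic islets, read 19261, 14332 and 16311 in differentiated samples, against 113, 417 and 395 in undifferentiated samples (1415905_at). As for Ptx3 and Saa3, a clear signal stood against arrays that were all below background. The means were 16635 ± 2481 and 308 ± 169 (SD, n = 3 each), at least 28.6-fold higher in differentiated samples. Undifferentiated samples differed by over 3 times among themselves, all below background, where values have no reliable order.

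Lcn2, lipocalin-2, an acute-phase protein that binds bacterial siderophores and so withholds iron, was the exception among the secreted proteins. It read 367, 243 and 419 in differentiated samples, against 529, 1027 and 1820 in undifferentiated samples (1427747_a_at). All differentiated arrays were below background, and 2 of 3 undifferentiated arrays were above it. The states did not overlap, but undifferentiated sample 1 also lay below background, where values have no reliable order. The means were 343 ± 90.7 and 1125 ± 651 (SD, n = 3 each), at least 1.37-fold lower in differentiated samples. That figure takes in undifferentiated sample 1 as read, so it is no strict bound. The spread among undifferentiated samples was wide.

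**Figure D2:**
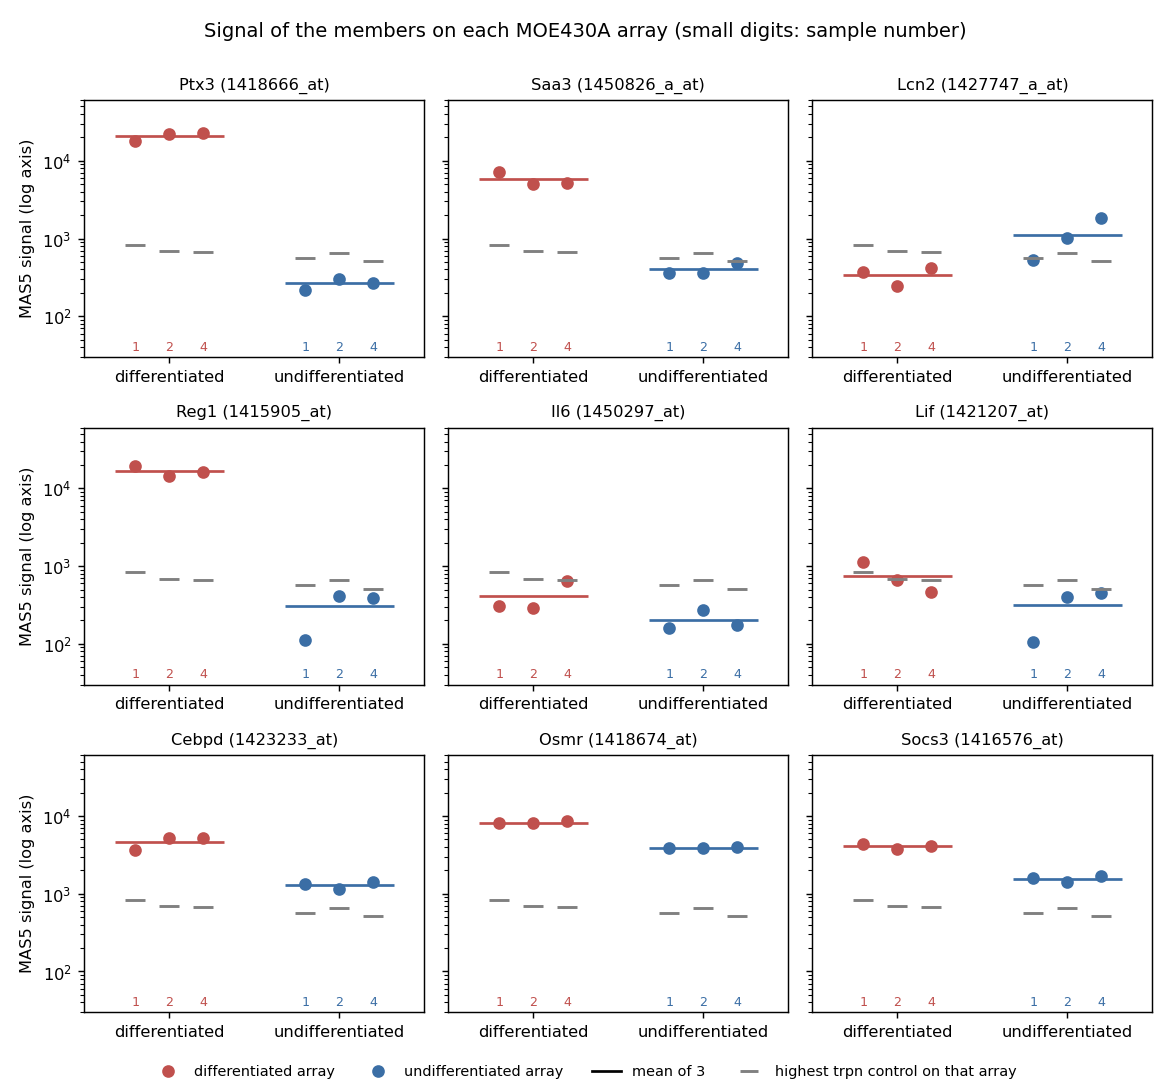
MAS5 signal (log axis) of the 9 members on each MOE430A array, with differentiated samples left of undifferentiated samples in every panel; points are arrays, coloured lines are means of 3 and grey ticks are the background of each array. Ptx3, Saa3 and Reg1 stand far above the ticks in differentiated samples and below them in undifferentiated samples, while Il6 is below the ticks everywhere.

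Of the cytokines, Il6, the founding ligand of the family and an inducer of hepatic acute-phase genes, could not be measured here. It read 311, 293 and 635 in differentiated samples, against 158, 274 and 175 in undifferentiated samples (1450297_at). All 6 arrays were below background, so no fold and no direction are given. Lif, leukaemia inhibitory factor, which signals through gp130 and Lifr, read 1126, 665 and 460 in differentiated samples, against 107, 406 and 449 in undifferentiated samples (1421207_at). Only differentiated sample 1 was above background, and differentiated sample 4 and undifferentiated sample 4 were nearly level. The means were 751 ± 341 and 320 ± 186 (SD, n = 3 each), and no fold is given, since most arrays of both states were below background. The other Lif probe set, 1450160_at, was too dim for the fit, with 89.5, 82.0 and 184 in differentiated samples against 264, 188 and 282 in undifferentiated samples, all below background. Differentiated sample 1 was thus the only array of either Lif probe set above background.

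Osmr, the receptor subunit that pairs with gp130 to bind oncostatin M, was measured above background on every MOE430A array. Probe set 1418674_at read 8017, 8109 and 8556 in differentiated samples, against 3889, 3874 and 4025 in undifferentiated samples. The same-state values lay close together and the states were well apart, with means of 8227 ± 288 and 3929 ± 83.7 (SD, n = 3 each). The log2 difference, differentiated minus undifferentiated throughout, was 1.05 ± 0.11 (SE), and it became -0.12 when arrays were scaled on the hybridisation controls. Probe set 1418675_at read 4754, 4965 and 4383 in differentiated samples, against 1994, 2139 and 1776 in undifferentiated samples. Its log2 difference was 1.23 ± 0.13, or 0.07 under scaling on the hybridisation controls. On MOE430B, probe set 1459217_at read 2146, 1923 and 1809.7 in differentiated samples, against 1252, 1089.6 and 587 in undifferentiated samples. That probe set did not overlap either, but only 1 of its 6 arrays was above background.

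Cebpd, C/EBP delta, a transcription factor induced by IL-6 and STAT3 that drives acute-phase genes, read 3690.1, 5163 and 5203 in differentiated samples, against 1345, 1137 and 1402 in undifferentiated samples (1423233_at). Every array was above background and the states did not overlap. The means were 4685 ± 862 and 1295 ± 139.7 (SD, n = 3 each), a log2 difference of 1.79 ± 0.18 (SE). A second probe set, 1456605_at, read 1084, 999 and 1287 in differentiated samples, against 462, 480.0 and 706 in undifferentiated samples. Its log2 difference of 0.96 ± 0.19 was smaller, and it became -0.12 under scaling on the hybridisation controls. Only 1 of the 3 undifferentiated arrays was above background there.

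Socs3, the suppressor of cytokine signalling that binds gp130 and JAK kinases and ends the signal, was read by 3 probe sets on MOE430A. Probe set 1416576_at read 4412, 3726 and 4095 in differentiated samples, against 1571, 1429 and 1667 in undifferentiated samples. Every array was above background and the lowest differentiated value was over 2 times the highest undifferentiated one. The means were 4078 ± 343 and 1556 ± 120.0 (SD, n = 3 each), a log2 difference of 1.35 ± 0.13 (SE). Probe set 1455899_x_at read 3444, 2727 and 3795 in differentiated samples, against 1032, 1209 and 1481 in undifferentiated samples, a log2 difference of 1.37 ± 0.18. Probe set 1456212_x_at read 741, 2397 and 2562 in differentiated samples, against 858, 1063 and 1105 in undifferentiated samples. In this one the states overlapped, because differentiated sample 1 lay below all undifferentiated samples, and the log2 difference was 0.70 ± 0.43, or -0.40 under scaling on the hybridisation controls. Its probes share sequence with other transcripts, as the suffix _x_at marks, and the suffix is shared by 1455899_x_at.

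Of the 14 tested member probe sets that were above background on some array, 11 had every differentiated sample above every undifferentiated one, 1 had every differentiated sample below, and 2 overlapped. For Lcn2, Lif and the MOE430B probe set of Osmr this order rests in part on values below background. On MOE430A, 24.1% of all tested probe sets had no overlap in the upward direction and 23.5% in the downward direction, and on MOE430B 11.7% and 11.1%. By 1 probe set per gene, 6 of the 9 genes passed the threshold on the higher side, 1 on the lower side, and Il6 and Lif did not pass. Among all 14977 genes tested, 9.23% passed as higher and 9.27% as lower. Counting every tested member probe set, 9 of 13 on MOE430A passed as higher and 1 as lower, and 0 of 2 on MOE430B passed. On MOE430A 28.5% of all tested probe sets passed, 14.1% as higher and 14.4% as lower, and on MOE430B 1.83%, with 0.714% higher and 1.12% lower. Since the genes were listed with this contrast known, nothing is read from these shares. Differentiated sample 2, whose hybridisation controls stood apart, was the lowest of its state in 3 and the highest in 0 of the 6 genes that were above background in all differentiated samples.

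Scaling mattered for the moderate differences. When arrays were scaled on the hybridisation controls in place of a common trimmed mean, the median log2 difference of all probe sets moved to -1.07 on MOE430A and -0.92 on MOE430B. The fit then gave all genes named here from MOE430A the same SE, 0.39. Adjusted p-values under this scaling are therefore not comparable with those under the common trimmed mean. Under this scaling Ptx3 had a fitted log2 difference of 4.86, Reg1 of 4.48, Saa3 of 2.50 and Cebpd of 0.63, while Socs3 (0.19), Lif (0.15) and Osmr (-0.12) came close to 0. Relative to the shifted median, Osmr stood at 0.95, Socs3 at 1.26 and Cebpd at 1.71. The scaling multiplies each array by 1 factor, so this return towards the values under the common trimmed mean follows by construction. Lcn2 remained lower under both scalings, with a fitted log2 difference of -1.39 under the common trimmed mean and -2.39 on the hybridisation controls. The statement that Osmr was higher in differentiated samples therefore holds relative to most transcripts, and not relative to the spiked controls.

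**Figure D3:**
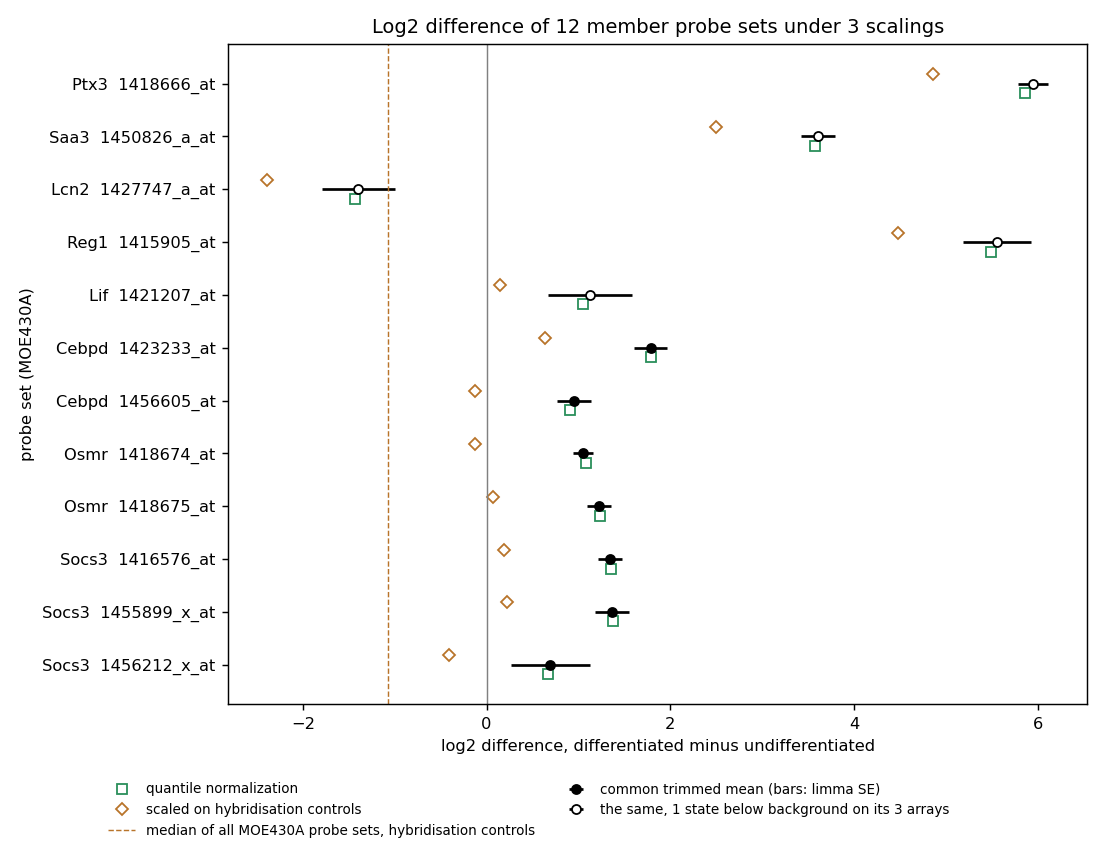
Log2 difference, differentiated minus undifferentiated, of 12 MOE430A probe sets of the members (rows) under 3 scalings; filled circles are scaled to a common trimmed mean with limma's SE, white circles mark probe sets with 1 state below background on its 3 arrays, whose fitted value is no bound. The diamonds of scaling on hybridisation controls lie left of the circles by about as much as the dashed median of all probe sets (-1.07) lies left of 0. They reach below 0 for 1 probe set each of Cebpd (-0.12), Osmr (-0.12) and Socs3 (-0.40) besides Lcn2.

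For each member with a measurable profile, the 2 genes with the most similar log2 profile over the 6 MOE430A arrays were looked up among 9483 genes. For Ptx3 they were Asns and Cemip (Pearson r 0.9997 each), for Saa3 Htra1 (0.9992) and Gas1 (0.9984), and for Reg1 Tprgl (0.999) and Tcf7l2 (0.9987). For Cebpd they were Phldb2 (0.9997) and Ndufv3 (0.9994), for Osmr Rnd3 (0.9991) and Gpx3 (0.9989), and for Socs3 Fibin (0.9988) and Fzd2 (0.9982). These r are descriptions over 6 arrays in 2 states, where any gene with well separated states gives a high r. Between 10.2% and 11.5% of genes had an r over 0.9 with each of these 6 members. For Lcn2 (Lsg1 0.9937, Camk4 0.9886) that share was 1.49%, over a profile with 4 of its 6 arrays below background. Il6 and Lif were at or below background on 5 or 6 arrays, where a profile has no reliable order, so no genes are named for them. None of the 14 named genes is a member.

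The other genes of the pathways were taken from 9 lists of 126 genes drawn up with earlier results known, of which 86 were tested by 1 probe set each. Adjusted p-values below are from limma with Benjamini-Hochberg adjustment over all probe sets of the chip, and 19 genes passed as higher and 6 as lower in differentiated samples. Over all genes tested 9.23% passed as higher and 9.27% as lower, and over all MOE430A probe sets 14.1% and 14.4%. These shares stand beside the count of each list and of the cell type markers below. As the lists were drawn up with results known, nothing is read from the counts. At an unadjusted p under 0.05 the limma fit gave 28 higher and 10 lower, with 0 lower among ligands, receptors, the interleukin-1 family, C/EBP genes and the other acute-phase proteins. Their median log2 difference was 0.18 (0.16 with genes that were below background in 1 state at their bound and those below it in both left out), against 0.04 over all genes tested. Leaving out 1 sample at a time gave 13 to 17 genes higher and 2 to 7 lower, and with differentiated sample 2 alone against the 3 undifferentiated samples 10 were higher and 3 lower.

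Among 5 tested receptor genes of the IL-6 family 2 rose and 0 fell, with a median log2 difference of 0.46. Il6st, the shared chain gp130, read 14893, 20076 and 19303 in differentiated samples, against 4110.4, 3659 and 3801 in undifferentiated samples. The log2 difference was 2.20 ± 0.15 (SE, adjusted p = 0.000132), it stayed below the threshold when any 1 sample was left out, and all 4 of its probe sets on both chips passed as higher. Il6ra, the receptor chain that binds IL-6 itself, rose by 0.98 ± 0.28 (adjusted p = 0.0383). That call was lost without differentiated sample 1 or 4 or undifferentiated sample 2 or 4 (adjusted p up to 0.12), and the sign turned under scaling on the hybridisation controls (-0.17). Lifr, the partner of gp130 for LIF, had 957 ± 71.6 in differentiated and 826 ± 192 in undifferentiated samples (adjusted p = 0.406).

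Of 4 tested ligands 1 rose and 0 fell, with a median log2 difference of 0.29. Ctf1, cardiotrophin-1, rose by 0.51 ± 0.13 (SE, adjusted p = 0.0283). The call held without differentiated sample 4 only (adjusted p up to 0.0838 without another sample), and the sign turned under scaling on the hybridisation controls (-0.59). Osm, oncostatin M, the ligand of Osmr, averaged 2166 ± 197 in differentiated and 2014 ± 726 in undifferentiated samples on MOE430B, with overlapping states (adjusted p = 0.86). Only 2 of 3 differentiated and 1 of 3 undifferentiated arrays were above background for Osm, so its level is uncertain in both states. Il11, interleukin-11, was below background on all arrays of both states.

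By 1 probe set each, none of 9 tested genes for JAK kinases, STAT factors and adaptors passed with limma (0 higher and 2 lower at an unadjusted p under 0.05). Their median log2 difference was -0.00. Dimmer probe sets of some of these 9 genes did pass as higher. These were Stat5b 1422102_a_at with 0.67 ± 0.17 (SE, adjusted p = 0.0282), Ptpn11 1421196_at with 0.48 ± 0.12 (adjusted p = 0.022) and Stat3 1424272_at, given below. The brighter probe sets of Stat5b (adjusted p = 0.204) and Ptpn11 (adjusted p = 0.544) did not. Jak1, the main kinase bound to gp130, had 10246 ± 799 in differentiated and 10294 ± 1326.5 in undifferentiated samples. Stat3, the factor that carries the signal to the nucleus, had 8031 ± 659.8 in differentiated and 6808 ± 1296 in undifferentiated samples, a log2 difference of 0.25 ± 0.17 (SE, adjusted p = 0.298). A dimmer Stat3 probe set, 1424272_at, had a difference of 0.98 ± 0.23 (adjusted p = 0.0193), and another on MOE430A, 1460700_at, 0.18 ± 0.15 (adjusted p = 0.415). The MOE430B probe set 1459961_a_at had -0.37 ± 0.23 (adjusted p = 0.499), with every differentiated sample below every undifferentiated one. The Stat3 probe sets thus disagree in size and sign, and RNA levels say nothing of STAT3 phosphorylation, which was not measured.

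Of 18 feedback regulators and targets of STAT factors, 3 rose and 5 fell, with a median log2 difference of 0.14. Timp1, an inhibitor of matrix metalloproteinases and an acute-phase target of the family, read 14178, 13268 and 12851 in differentiated samples, against 49432, 44142 and 46723 in undifferentiated samples. It fell by 1.79 ± 0.12 on the log2 scale (adjusted p = 0.000104), opposite to Socs3 and Cebpd. Vegfa, a growth factor for blood vessels, averaged 2920.1 ± 281 in differentiated and 1155 ± 140.1 in undifferentiated samples, a log2 difference of 1.29 ± 0.14 (adjusted p = 0.000952), which no longer passed when scaled on the hybridisation controls (0.15, adjusted p = 0.723). Socs2, another suppressor of cytokine signalling, rose by 0.73 ± 0.20 (adjusted p = 0.0333), a call lost without differentiated sample 2 or 4 or undifferentiated sample 1 or 4 (adjusted p up to 0.096) and with a sign that turned on the hybridisation controls (-0.38). Its probe set 1418507_s_at had 0.88 ± 0.19 (adjusted p = 0.0139), and 1442586_at on MOE430B 0.51 ± 0.25 (adjusted p = 0.397). A further one on MOE430B, 1438470_at, passed as higher (adjusted p = 0.0116) but was below background on all arrays. Pim1, a kinase, passed the test (adjusted p = 0.00253) with 571 ± 138 in differentiated and 107 ± 49.4 in undifferentiated samples, but was below background on all arrays, so no fold is given.

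The phosphatase gene Ptpn2, whose product dephosphorylates JAK and STAT proteins, fell by 0.91 ± 0.21 on the log2 scale (adjusted p = 0.0191), and was lost without undifferentiated sample 4 (adjusted p = 0.0558). Other probe sets of Ptpn2 did not pass, with -0.23 ± 0.15 for 1417140_a_at (adjusted p = 0.272, overlapping states) and -0.37 ± 0.19 for 1425197_at (adjusted p = 0.179). Tnfrsf12a, the receptor of the cytokine TWEAK, fell by 0.77 ± 0.19 (adjusted p = 0.0216), a call lost without differentiated sample 2 or undifferentiated sample 1 or 4 (adjusted p up to 0.0627). The other falls, named after their values were seen, were Fos, an AP-1 subunit, with -0.74 ± 0.14 (adjusted p = 0.00899), and the survival factor Mcl1 with -0.43 ± 0.11 (adjusted p = 0.027).

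Of 12 tested genes of the interleukin-1 family and its receptors 5 rose and 0 fell, with a median log2 difference of 0.55 (0.43 with bounds). Il1r1, the signalling receptor for interleukin-1, read 5093, 5540.1 and 6456 in differentiated samples, against 1549.8, 1245 and 786 in undifferentiated samples, a log2 difference of 2.23 ± 0.24 (adjusted p = 0.000868). Il1rn, the secreted receptor antagonist, averaged 1763 ± 259 in differentiated and 318 ± 96.2 in undifferentiated samples, at least 3.03-fold higher (adjusted p = 0.000547), and its 3 probe sets all passed as higher. Il1b averaged 984 ± 106 in differentiated and 450.2 ± 90.4 in undifferentiated samples, at least 1.70-fold higher (adjusted p = 0.00542). Receptor, antagonist and ligand of interleukin-1 thus had higher RNA together, although the difference of Il1b was -0.04 when scaled on the hybridisation controls. Il33, the ligand of the receptor encoded by Il1rl1, averaged 6868 ± 828 in differentiated and 4106 ± 291 in undifferentiated samples, a log2 difference of 0.73 ± 0.14 (adjusted p = 0.00981) that turned to -0.45 on the hybridisation controls. With differentiated sample 2 as the only differentiated sample, Il1b (adjusted p = 0.0716) and Il33 (adjusted p = 0.108) no longer passed. Il1r2, the decoy receptor, was the remaining rise and was named after its values were seen, with 614 ± 65.9 in differentiated and 385 ± 65.2 in undifferentiated samples (adjusted p = 0.0293). Only 1 of its 6 arrays was above background, so no fold is given, and its sign turned on the hybridisation controls (-0.43). Il1rap, the shared accessory chain, had a difference of 0.35 ± 0.13 (adjusted p = 0.0846), while a second probe set of it, 1421843_at, had 0.67 ± 0.15 (adjusted p = 0.0164).

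Of 16 tested genes of the TNF, Toll-like receptor and NF-kB pathways 2 rose and 0 fell by limma (2 lower at an unadjusted p under 0.05), with a median log2 difference of -0.04. Cd14, the co-receptor for lipopolysaccharide, averaged 1723 ± 274 in differentiated and 841 ± 94.1 in undifferentiated samples, a log2 difference of 0.97 ± 0.16 (adjusted p = 0.00495). Tnfrsf1b, a TNF receptor, averaged 1517 ± 56.7 in differentiated and 756 ± 30.9 in undifferentiated samples, a log2 difference of 0.94 ± 0.11 (adjusted p = 0.00144). Both signs turned on the hybridisation controls, to -0.15 for Cd14 and -0.17 for Tnfrsf1b. Nfkbia, the NF-kB inhibitor that NF-kB itself induces, had -0.12 ± 0.13 (adjusted p = 0.489). Other probe sets of Nfkbia on MOE430A gave -0.56 ± 0.13 for 1449731_s_at (adjusted p = 0.0216) and -0.59 ± 0.18 for 1448306_at (adjusted p = 0.0494), while 1420089_at had 0.43 ± 0.18 (adjusted p = 0.121), so its probe sets disagree in sign.

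Of 3 tested C/EBP genes besides Cebpd 1 rose, and the median log2 difference was 0.45. Cebpb, the partner of C/EBP delta on acute-phase genes, rose by 0.57 ± 0.17 (SE, adjusted p = 0.0482). That call held without differentiated sample 2 only (adjusted p up to 0.135 without another sample), and the sign turned on the hybridisation controls (-0.61). A second Cebpb probe set, 1427844_a_at, had a larger difference of 1.13 ± 0.12 (adjusted p = 0.000868).

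Of the other acute-phase proteins 14 of 31 genes were tested, 5 rose and 0 fell, with a median log2 difference of 0.15 (0.56 over the 9 of the 14 that were above background on some array). Serpina3n, a serine protease inhibitor, read 16164, 15883 and 17309.8 in differentiated samples, against 2687, 1624.5 and 2197 in undifferentiated samples, a log2 difference of 2.91 ± 0.19 (adjusted p = 0.000101). Lbp, which carries lipopolysaccharide to CD14, averaged 3889 ± 263 in differentiated and 1107 ± 125 in undifferentiated samples, a log2 difference of 1.75 ± 0.13 (adjusted p = 0.000198). On the hybridisation controls Serpina3n kept its call at 1.73, while Lbp, at 0.60, no longer passed (adjusted p = 0.151). Cp, the copper carrier ceruloplasmin, averaged 2734 ± 356 in differentiated and 544 ± 499 in undifferentiated samples. Its log2 difference was 2.65 ± 0.71 (adjusted p = 0.0309), lost without any 1 differentiated sample or without undifferentiated sample 2 (adjusted p up to 0.0764). The size of the Cp difference depends on single undifferentiated samples, with 1.76 without sample 1 and 3.32 without sample 4. The remaining rises, named after their values were seen, were the metal-binding Mt2 with 0.77 ± 0.14 (adjusted p = 0.00855), a sign that turned on the hybridisation controls (-0.42), and Alb, albumin, which was below background on all arrays.

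Most other classical liver acute-phase genes gave no measurable signal. Of the 27 listed genes with a probe set, 18 were below background on every array, among them Saa1, Saa2 and Hp, the genes for serum amyloid A1, serum amyloid A2 and haptoglobin. Of all probe sets, 43.5% to 54.5% were below background on single MOE430A arrays. Saa1 averaged 231 ± 35.9 in differentiated and 186 ± 37.5 in undifferentiated samples on its brighter probe set, where Saa3 was above background in all differentiated samples. Of 5 tested relatives of Ptx3 and Reg1 0 rose by limma (2 higher at an unadjusted p under 0.05) and 1 fell. Nptx1, a neuronal pentraxin, averaged 924 ± 377 in differentiated and 1905 ± 227 in undifferentiated samples, and fell by 1.04 ± 0.26 on the log2 scale (adjusted p = 0.0235), a call that held without differentiated sample 1 only (adjusted p up to 0.0783 without another sample). Its second probe set, 1434877_at, was below background in differentiated samples and at least 1.27-fold lower there (adjusted p = 0.000158).

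**Figure D4:**
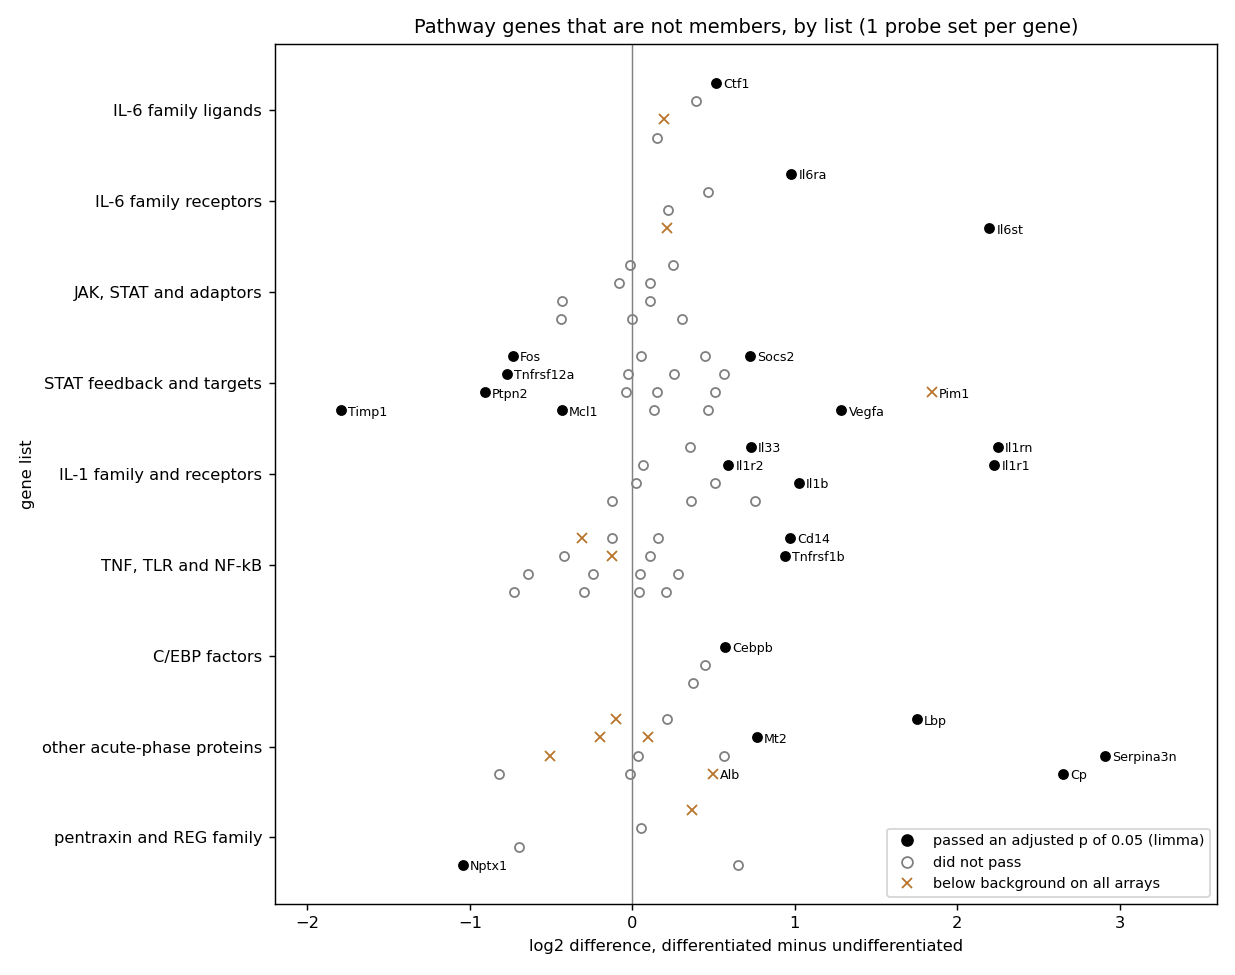
Log2 difference, differentiated minus undifferentiated, of the tested pathway genes that are not members, 1 point per gene in 9 lists (rows); filled points passed an adjusted p of 0.05 with limma, open points did not, and crosses are genes below background on all arrays. Of the filled points, Il6st, Il1rn, Il1r1, Serpina3n, Cp and Lbp lie farthest to the right, Timp1 lies farthest to the left at -1.79, and the JAK and STAT row holds no filled point.

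Markers of cell types that the cultures could hold moved between the states too. Of 8 myoepithelial markers 6 were below background on all arrays, among them the keratin gene Krt14. The labels put differentiated cells at about 50% myoepithelial. On single MOE430A arrays 43.5% to 54.5% of all probe sets were below background too, so counts of markers below it do not show absence. Among 6 tested, 2 rose by limma, Acta2 and 1 other, and 0 fell. Both rises were above background on some array, with a median log2 difference of 2.56 counting bounds. Acta2, smooth muscle actin, averaged 50043 ± 5416 in differentiated and 5580.5 ± 251 in undifferentiated samples, a log2 difference of 3.14 ± 0.13 (adjusted p = 2.9e-05). The summed myoepithelial signal, carried mostly by Acta2, was 46719.6 to 57094 in differentiated and 8185 to 9221 in undifferentiated samples. Of 8 luminal markers 5 were below background on all arrays, and of 4 tested 0 rose and 0 fell by limma (1 higher and 1 lower at an unadjusted p under 0.05). Krt8, a luminal keratin, had 1229 ± 228 in differentiated and 1091 ± 145 in undifferentiated samples, and Krt18 was below background on all differentiated arrays, with overlapping states. The luminal sum was 6258 to 12562 in differentiated and 4549 to 12154 in undifferentiated samples. The keratins named here were thus dim or below background, beside a strong signal of Acta2, a gene that myofibroblasts express too. Which cells carried the Acta2 signal was not tested.

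All 8 fibroblast markers were above background on all arrays, 4 rose and 2 fell, and their sum was 403111 to 542693 in differentiated and 270380.0 to 271658 in undifferentiated samples. Of 9 tested macrophage and leukocyte markers 2 rose and 0 fell by limma (4 higher and 1 lower at an unadjusted p under 0.05). Their median log2 difference was 0.77, with sums of 11644 to 14140.2 in differentiated and 7729 to 9741 in undifferentiated samples. Ptprc and Cd68, which are not among the 2 rises, had been set to be named whatever their values. Ptprc, the pan-leukocyte gene for CD45, was below background on every array of both states, and the macrophage marker Cd68 had a log2 difference of -0.46 ± 0.15 (adjusted p = 0.0619). Of 8 tested mast cell markers 0 rose by limma (0 higher at an unadjusted p under 0.05 too) and 6 fell. Kit averaged 470.4 ± 116 in differentiated and 2037 ± 100.5 in undifferentiated samples, at least 2.80-fold lower in differentiated samples (adjusted p = 0.000386), and Cpa3, mast cell carboxypeptidase, fell by 1.36 ± 0.22 on the log2 scale (adjusted p = 0.00496). The mast cell sum was 4042 to 5566 in differentiated and 11122 to 14291 in undifferentiated samples. Of 5 tested endothelial markers 1 rose and 2 fell, with sums of 3037 to 4006 in differentiated and 3324 to 4031 in undifferentiated samples. The part of these cell types in the values of the members was not tested.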

How the data were processed

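Total RNA of 3 differentiated and 3 undifferentiated samples was hybridised to 1 array of each chip, per the labels. The deposited intensity values are MAS5 signals per the submitters' processing notes, which give no version, and the deposited arrays of each chip share a trimmed mean (2% off each end) of 1500.5 on MOE430A and 1500.2 on MOE430B. Detection calls were not used here. Instrument records gave fluidics station and scan session.

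Here arrays were scaled to that trimmed mean, 5% of it was added and log2 taken. Probe sets averaging at least 20% of it (15939 on MOE430A, 17915 on MOE430B) were tested with limma 3.58.1 (lmFit and eBayes, R 4.3.3), two-sided, without covariates, with Benjamini-Hochberg adjustment per chip and a threshold of 0.05. The script was tested on simulated data. Python 3.11.15, pandas 2.3.3 and matplotlib 3.10.9 made tables and figures.

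The platform tables pair 20393 of 22690 probe sets on MOE430A with 1 gene, 691 with several and 1606 with none, and 14674, 245 and 7656 of 22575 on MOE430B. Probe sets with several genes are not named, and symbols were updated through a RefSeq table. Each chip's 64 AFFX controls did not enter the fit. A gene is shown by its brightest tested probe set, on MOE430A where it has one there. A probe set below background on all 3 arrays of a state gives a bound, from the geometric mean of the brighter state over that of the background, or of the probe set's own signal where higher.

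The members, the gene lists and the tests were chosen with earlier results of these data known. Of each pathway list up to 3 rises and 3 falls are named, those with the largest log2 difference that passed without overlap, besides 14 genes named whatever their values. Alternatives were the deposited values, quantile normalization, scaling on hybridisation controls, other offsets and filters, a trended and robust prior, sample number or scan session as a block, and leaving out samples. Same-numbered samples did not deviate together on either chip (r of deviations between -0.02 and 0.05).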

Additional observations from a re-analysis of the deposited data

How the results depend on the processing

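Scaling on the hybridisation controls changed most: on MOE430A 10941 probe sets passed in place of 4550, 227 of them higher and 10714 lower in differentiated samples, against 2252 higher and 2298 lower, and on MOE430B 1736 in place of 328. Pathway genes passing were then 5 higher and 46 lower, in place of 19 and 6. This scaling moves all probe sets of an array by 1 factor, and the named genes on MOE430A shared an SE of 0.3939. The passes under it are therefore not independent of each other, nor comparable with those under the common trimmed mean. Under this scaling the log2 difference of the probe set shown changed sign for Osmr (-0.12), Ctf1 (-0.59), Il6ra (-0.17), Socs2 (-0.38), Il1b (-0.0404), Cd14 (-0.15) and Tnfrsf1b (-0.17). It also did for Cebpb (-0.61), Lifr (-0.87), Stat3 (-0.93), Il1rap (-0.78), Il33 (-0.45) and Osm (-0.84). The other Osmr probe sets came close to 0 without a change of sign, at 0.07 for 1418675_at and 0.04 for 1459217_at. Vegfa and Lbp no longer passed. The cause was not tested. Without differentiated samples 1 and 4, 2384 probe sets passed on MOE430A, 0 on MOE430B by limma (2204 at an unadjusted p under 0.05), and 10 pathway genes higher and 3 lower. Leaving out 1 sample at a time gave 2760.0 to 3823 probe sets on MOE430A, lowest without undifferentiated sample 4 and next 2855 without undifferentiated sample 2, 39 to 146 on MOE430B, and 13 to 17 pathway genes higher and 2 to 7 lower, with 3 lower without undifferentiated sample 1 and 2 without undifferentiated sample 4. On MOE430B each of the 6 samples moved the count by over 1.5 times. With the scan session as a block, which sets undifferentiated sample 1 aside, 58 passed on MOE430B and 3 pathway genes were lower. A trended and robust prior gave 838 on MOE430B. Without a filter on dim probe sets 12 pathway genes were higher. When any tested probe set of a gene could pass, 24 pathway genes were higher and 7 lower. By their brightest tested probe sets Ptx3, Saa3, Reg1, Lcn2, Cebpd and Socs3 kept their direction in the alternatives run, and Il6 could not be fitted on the hybridisation controls. Same-numbered samples did not deviate together, and with the replicate block 3563 probe sets passed on MOE430A and 0 on MOE430B by limma (2505 at an unadjusted p under 0.05). The near-zero difference of Jak1 turned to 0.0254 under quantile normalization and 0.0582 without differentiated samples 1 and 4, and ranged from -0.0897 to 0.0934 with 1 sample left out (0.0642 without differentiated sample 4), and that of Osm from -0.0641 without undifferentiated sample 4 to 0.4165 without undifferentiated sample 1. Over the named pathway genes and all alternatives, 379 values kept direction and side of the threshold, 64 in 14 genes no longer passed, 4 in 4 genes newly passed and 17 in 13 genes changed sign, 10 of which also crossed the threshold. On MOE430B most probe sets are near or below background, which limits what those arrays can show.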
